A study of Mus musculus with 12 samples.

Results

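The spectrin and ankyrin genes of mouse cortex described here are Sptan1, Sptbn1, Sptbn4, Sptb, Ank2, Ank3 and Ank1, 7 of the 29879 genes counted. They were chosen by symbol, and the choice was made with values of these libraries in view, the wide spread of the TRAP libraries among them. Levels in the TRAP libraries, and every difference that uses those libraries, are therefore given as a description. The other comparisons were tested, but on genes chosen with earlier results of these data known. Their p-values and calls are therefore not those of an independently chosen set of genes. RNA was sequenced in 12 libraries, 3 for each of 4 preparations, all from the cortex of postnatal day 21 mice of the SNAP25 BacTRAP line. SynapTRAP is the immunoprecipitate of eGFP from the synaptic band, collected on sucrose and Percoll, and TRAP is the immunoprecipitate of eGFP-tagged ribosomes from whole cortex. SNF is that gradient band before immunoprecipitation, and WCH is cortex RNA with neither step. Every group, WCH included, carries the transgene. In a bacTRAP line a tagged ribosomal protein is made under the control of a chosen gene, here the neuronal gene Snap25, so that messenger RNA bound to tagged ribosomes can be pulled down. The labels do not say whether the replicates are separate animals, so p-values measure the spread between these samples, which may be technical.

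Spectrins are long, flexible rods made of alpha and beta subunits that cross-link short actin filaments beneath the plasma membrane. Ankyrins are adaptors that tie this lattice to ion channels, transporters and adhesion molecules. In neurons the lattice runs along axons and dendrites, and special forms of it hold sodium channels at the axon initial segment and at nodes of Ranvier. Sptan1 encodes the alpha subunit used outside red cells. Sptbn1 encodes beta-II spectrin, the beta subunit of the axonal lattice, Sptbn4 encodes beta-IV spectrin of the initial segment and nodes, and Sptb encodes beta-I spectrin, best known from the red cell. Ank2 encodes ankyrin-B, found along axon shafts. Ank3 encodes ankyrin-G, which organises the initial segment, and Ank1 encodes ankyrin-R, the red cell form that some neurons also make.

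The genes are spread over 7 chromosomes and are long, with for example 9.56 kb of annotated exon in Sptbn4 and 34.8 kb in Ank3 (GENCODE M21, GRCm38). Sptan1 (ENSMUSG00000057738) spans positions 29965560 to 30031451 on the plus strand of chromosome 2. The beta spectrin genes all lie on minus strands, Sptbn1 (ENSMUSG00000020315) on chromosome 11 from 30099395 to 30268175, Sptbn4 (ENSMUSG00000011751) on chromosome 7 from 27356383 to 27447686 and Sptb (ENSMUSG00000021061) on chromosome 12 from 76580488 to 76710547. Ank2 (ENSMUSG00000032826) lies on the minus strand of chromosome 3 from 126921612 to 127499350. Ank3 (ENSMUSG00000069601) and Ank1 (ENSMUSG00000031543) lie on plus strands, on chromosome 10 from 69398773 to 70027438 and on chromosome 8 from 22974844 to 23150497. Counts cover all annotated exons, so different isoforms of a gene, of which Ank3 has 47 annotated, are added together. Annotated genes overlap exons of Ank1 over 862 bases, of Sptbn4 over 243 bases, of Ank2 over 182 bases and of Sptbn1 over 134 bases on the opposite strand. Whether counting used strand is unknown, so reads from those stretches cannot be told apart.

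RefSeq promoter sequences (GRCm38.p6) matched 5 of the 7 genes. The 250 bases before the start of Sptan1, the alpha subunit, and of Sptb, a beta subunit, are shown because their RefSeq and GENCODE starts coincide. A link between these sequences and the levels in the preparations was not tested. Capitals mark the GC-box letters GGGCGG, or CCGCCC where they stand on the other strand, which were searched on both strands. Sptan1 is chr2:29965310-29965559 on the plus strand, and Sptb is chr12:76710548-76710797 on the minus strand.
Sptan1: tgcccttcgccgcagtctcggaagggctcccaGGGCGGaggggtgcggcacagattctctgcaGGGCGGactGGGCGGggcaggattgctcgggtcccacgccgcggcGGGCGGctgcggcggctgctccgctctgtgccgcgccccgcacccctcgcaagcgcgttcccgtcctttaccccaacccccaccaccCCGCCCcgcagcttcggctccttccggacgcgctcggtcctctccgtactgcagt
Sptb: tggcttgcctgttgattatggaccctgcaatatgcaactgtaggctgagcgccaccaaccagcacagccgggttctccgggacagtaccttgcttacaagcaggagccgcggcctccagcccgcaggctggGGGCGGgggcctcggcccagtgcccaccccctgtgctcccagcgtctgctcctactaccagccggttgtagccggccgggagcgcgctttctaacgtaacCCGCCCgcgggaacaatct
The Sptan1 window held 5 such matches and 73.6% G and C, and the Sptb window held 2 matches and 65.2% G and C. Of 32851 RefSeq windows of the same kind, 32.7% held at least 1 match, so a match is common among promoters.

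Gene counts per library ranged from 4368881 to 14335089, of which 0.93% to 87.3% came from the mitochondrial genome, with the highest shares in the SNF libraries. All 7 genes passed the filter on low counts, with between 37 reads (Sptbn4, SNF replicate 1) and 130585 reads (Sptbn1, TRAP replicate 3) in a library. Levels are in CPM, counts per 1000000 gene counts, with library sizes scaled by trimmed mean of M-values (TMM). The summed level of 10 neuronal marker genes was 6173 to 7658 CPM in SynapTRAP, 8827 to 13450 CPM in TRAP, 7372 to 8379 CPM in SNF and 10080 to 11190 CPM in WCH. The preparations differ in the gradient and pull-down steps. Cells of a type, RNA per cell and RNA kept by each step cannot be told apart in such bulk samples. The 7 genes together took 1.40%, 1.36% and 1.45% of the counts outside the mitochondrial genome in SynapTRAP replicates 1 to 3. Their share was 1.47%, 0.367% and 6.03% in TRAP, 0.526%, 0.391% and 0.697% in SNF, and 0.357%, 0.399% and 0.312% in WCH. SynapTRAP libraries were thus close to each other, and 1 TRAP library exceeded all others while another was at the level of WCH.

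Sptan1, the alpha subunit, had 797, 949 and 839.7 CPM in SynapTRAP, 1319, 292 and 7066 CPM in TRAP, 271, 283 and 346 CPM in SNF, and 280.2, 343 and 255 CPM in WCH. Its SNF and WCH libraries overlapped, and its SynapTRAP libraries lay above both. Sptbn1, its usual partner in axons, had 2821, 2801 and 2749 CPM in SynapTRAP, 1739, 362 and 11180 CPM in TRAP, 883, 600.0 and 1099 CPM in SNF, and 352, 432 and 287 CPM in WCH. Here SynapTRAP, SNF and WCH formed 3 separate levels. Sptbn4 was far lower, with 41.2, 35.1 and 44.4 CPM in SynapTRAP, 30.9, 18.7 and 126 CPM in TRAP, 10.7, 16.8 and 17.8 CPM in SNF, and 17.5, 17.0 and 15.7 CPM in WCH. Like Sptan1 it overlapped between SNF and WCH. Sptb had 209, 150.4 and 193 CPM in SynapTRAP, 118, 33.3 and 597 CPM in TRAP, 57.0, 32.2 and 63.5 CPM in SNF, and 31.2, 31.6 and 27.0 CPM in WCH. Its lowest SNF library was barely above its highest WCH library.

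Among the ankyrins, Ank2 had 2481, 2439 and 2538 CPM in SynapTRAP, 2038, 414 and 8706 CPM in TRAP, 1007, 826 and 1384 CPM in SNF, and 427, 495 and 433 CPM in WCH. Ank3 had 1011, 955 and 1278 CPM in SynapTRAP, 909, 298 and 3460 CPM in TRAP, 504, 379 and 655 CPM in SNF, and 275, 293 and 246 CPM in WCH. Both followed the pattern of Sptbn1, with SynapTRAP above SNF and SNF above WCH in every library. Ank1 had 41.9, 28.3 and 28.5 CPM in SynapTRAP, 20.4, 21.02 and 23.7 CPM in TRAP, 23.6, 21.8 and 14.1 CPM in SNF, and 18.1, 16.2 and 13.5 CPM in WCH. Ank1 alone among the 7 had TRAP libraries close to each other.

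**Figure D1:**
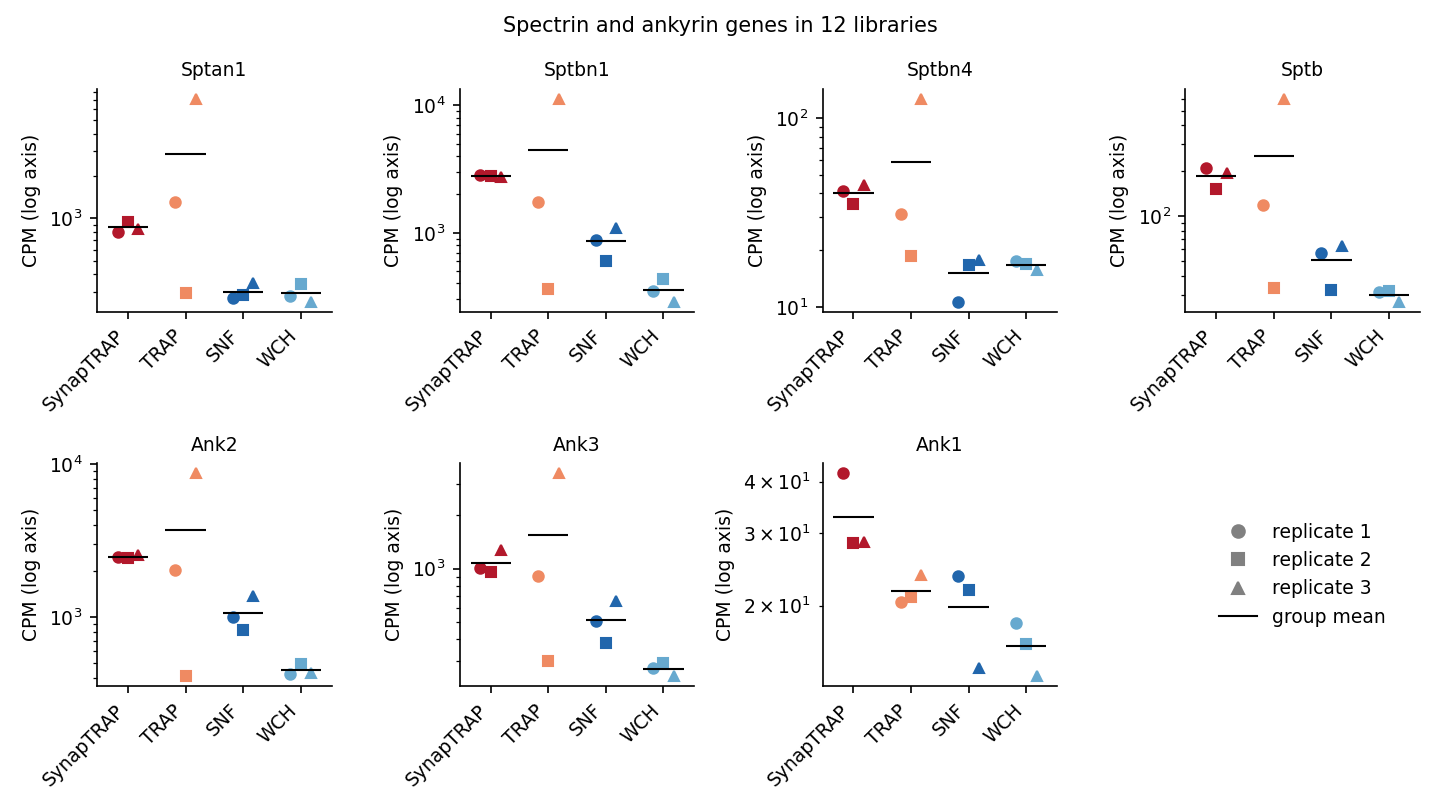
Level of each spectrin and ankyrin gene (CPM, log axis, a separate scale for each gene) in the 12 libraries; symbols are replicates 1 to 3 and lines are group means of 3. In 6 of the panels TRAP replicate 3 lies above and TRAP replicate 2 below every SynapTRAP library, while the TRAP libraries of Ank1 lie between 20.4 and 23.7 CPM.

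Per kilobase of exon, the order of the levels differed between preparations. In SynapTRAP, Sptbn1 led with 159.5 ± 2.14 CPM per kb (SD, n = 3), Ank2 had 71.0 ± 1.43 CPM per kb and Sptan1 64.5 ± 5.87 CPM per kb, and the libraries of Ank2 and Sptan1 overlapped. Ank3 followed with 31.0 ± 4.95, Sptb with 15.2 ± 2.50, Sptbn4 with 4.203 ± 0.495 and Ank1 with 2.43 ± 0.576 CPM per kb, each apart from its neighbours. In TRAP the group means ran from 253 CPM per kb (Sptbn1) to 1.61 CPM per kb (Ank1), and the only neighbours whose libraries did not overlap were Sptbn4 and Ank1. In SNF, Sptbn1 had 49.2 ± 14.3, Ank2 30.6 ± 8.13 and Sptan1 22.5 ± 3.02 CPM per kb, each overlapping its neighbour. Ank3 then had 14.7 ± 3.97 and Sptb 4.19 ± 1.36 CPM per kb, each separate from the genes around it, while Sptbn4 with 1.57 ± 0.403 and Ank1 with 1.47 ± 0.373 CPM per kb overlapped. In WCH, Sptan1 with 21.9 ± 3.41 and Sptbn1 with 20.4 ± 4.15 CPM per kb overlapped at the top. They were followed in WCH by Ank2 with 12.9 ± 1.08, Ank3 with 7.78 ± 0.672, Sptb with 2.46 ± 0.212, Sptbn4 with 1.75 ± 0.0989 and Ank1 with 1.18 ± 0.173 CPM per kb, all separate. Per kilobase of exon, the alpha subunit thus overlapped Sptbn1 in WCH and overlapped Ank2 in SynapTRAP and SNF, where Sptbn1 was higher than both on average. Its overlap with Ank2 depended on the length used. Per kilobase of the longest transcript, Ank2 lay wholly above Sptan1 in SynapTRAP (170.5 to 177.4 against 99.4 to 118.4 CPM per kb). The same held in SNF (57.7 to 96.7 against 33.8 to 43.2 CPM per kb), and in WCH they overlapped (29.8 to 34.6 and 31.8 to 42.8 CPM per kb). With the length of the longest transcript in place of all exons, 3 of the 7 genes kept their place in SNF, 5 in SynapTRAP, 5 in WCH and 7 in TRAP. The mean of Ank3 was then above that of Sptan1 in SNF and in SynapTRAP (108.5 and 107.5 CPM per kb, libraries overlapping), and that of Sptbn1 above that of Sptan1 in WCH (39.2 and 36.5 CPM per kb, libraries overlapping).

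The TRAP libraries differed from each other more in these genes than in most others, which was known when the genes were chosen and is given without a test. TRAP replicate 3 exceeded TRAP replicate 2 by 4.95 in log2 CPM for Sptbn1, the 3rd highest difference of 13404 tested genes. The difference was 4.60 for Sptan1 (6th), 4.39 for Ank2 (8th), 4.15 for Sptb (14th), 3.54 for Ank3 (30th) and 2.75 for Sptbn4 (75th). Ank1 differed by 0.17 and ranked 5269th, and the median of all genes was 0.005 (log2). TRAP replicate 1 lay between the others for those 6 genes, for example 2.26 above replicate 2 for Sptbn1 and 0.72 above it for Sptbn4 on the log2 scale. The range of log2 CPM over the 3 TRAP libraries had a median of 0.70 over all genes, and that of Sptbn1 exceeded the range of 99.9% of them.

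**Figure D2:**
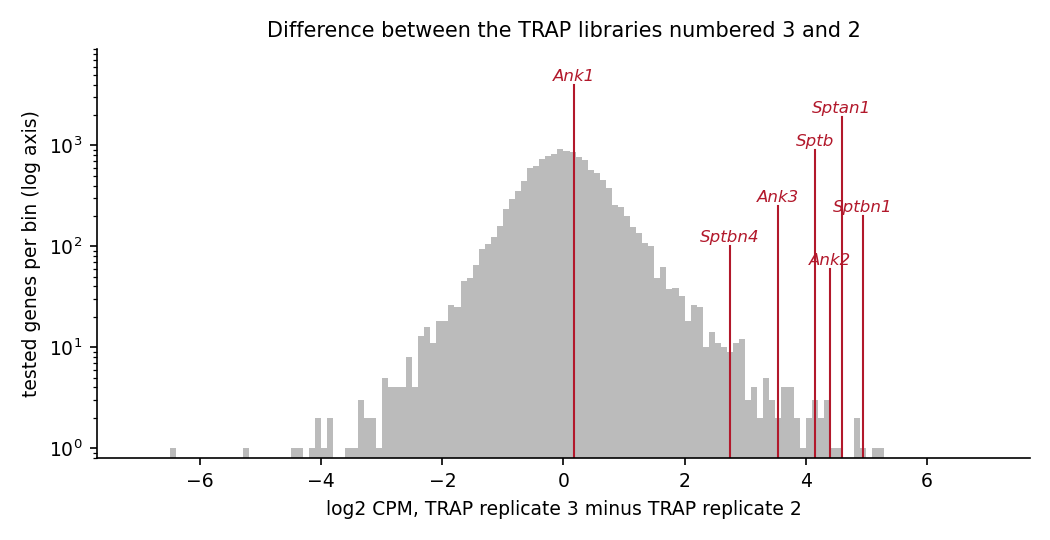
Histogram of the difference in log2 CPM between TRAP replicate 3 and TRAP replicate 2 over 13404 tested genes (genes per bin on a log axis); red lines of arbitrary height mark the spectrin and ankyrin genes. Sptbn4, Ank3, Sptb, Ank2, Sptan1 and Sptbn1 lie at 2.75 to 4.95, in the right tail, and Ank1 at 0.17 lies near the middle.

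Among the 12 genes highest in TRAP replicate 3 over replicate 2, listed after their values were seen, were Mbp, Gsn, Sptbn1, Actn2, Ppp1r9a, Sptan1, Ptprz1, Ank2, mt-Nd6, Myo6 and mt-Nd4. Beside Sptbn1, Sptan1 and Ank2, this list holds the actin-severing protein gelsolin (Gsn), the actin cross-linker alpha-actinin 2 (Actn2), the actin-binding scaffold neurabin (Ppp1r9a) and the motor myosin VI (Myo6). It also holds Mbp, the myelin basic protein gene, and 2 mitochondrial transcripts. The 10 oligodendrocyte genes summed to 2209, 519.6 and 7088 CPM in TRAP replicates 1 to 3, of which Mbp held 1273, 153 and 5943 CPM. The other 9 genes summed to 936, 367 and 1145 CPM, so the difference between TRAP replicates 1 and 3 in the list was mostly that of Mbp. The neuronal list had 13450, 8827 and 13170 CPM, and the transgene's GFP had 21.6, 21.8 and 55.1 CPM. The 8 endothelial genes summed to 4.21, 37.1 and 4.45 CPM in TRAP replicates 1 to 3, highest in replicate 2. Among the SynapTRAP libraries Sptbn1 differed by 0.04 and Ank2 by 0.06 on the log2 scale, beside a median of 0.78 for all genes. In those libraries the oligodendrocyte sum was 9951, 8790 and 21760 CPM, of which Mbp held 6202, 4690 and 16690 CPM and the other 9 genes 3750, 4101 and 5075 CPM. The part of these cells, or of the mitochondrial share of 5.16%, 0.93% and 5.43% in TRAP replicates 1 to 3, in the spread of the spectrin genes was not tested.

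**Figure D3:**
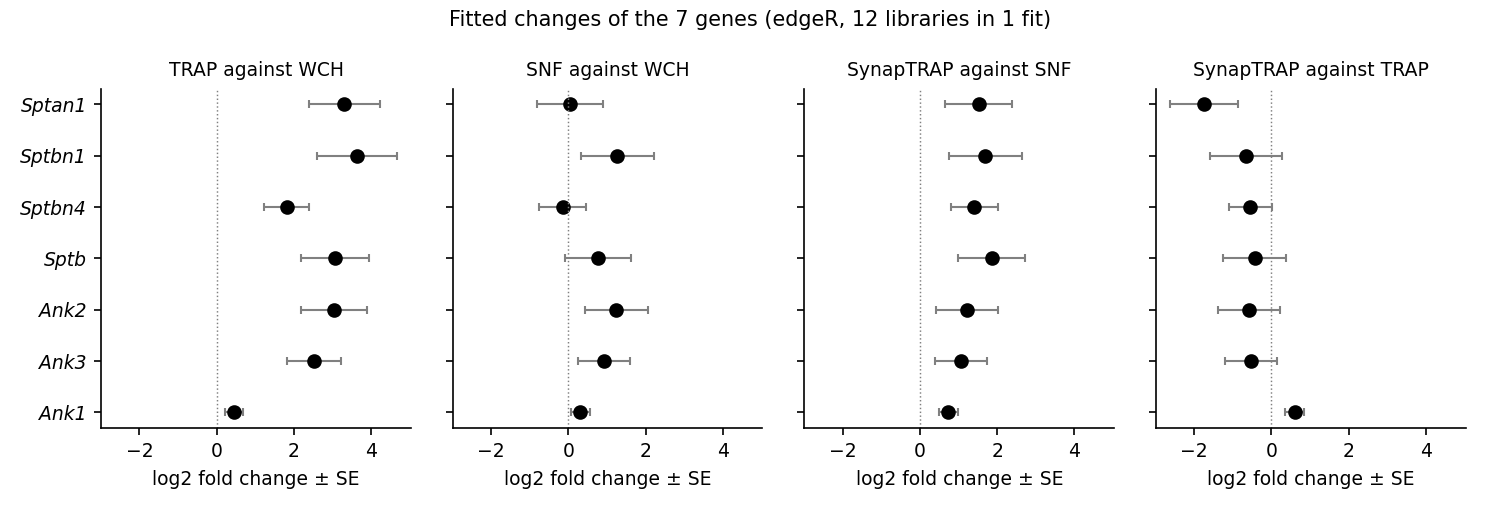
Fitted log2 fold change of each spectrin and ankyrin gene with its SE in 4 comparisons (edgeR, 12 libraries in 1 fit); the dotted line is no difference. In SNF against WCH the points run from -0.15 (Sptbn4) to 1.27 (Sptbn1), and in SynapTRAP against SNF all 7 lie between 0.73 and 1.86.

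Pull-down from whole cortex addresses which transcripts are on tagged ribosomes. In TRAP, 6 of the 7 genes had higher mean levels than in WCH by a factor of 3.51 (Sptbn4) to 12.4 (Sptbn1), and Ank1 by a factor of 1.36. The log2 fold changes were 3.63 ± 1.03 (SE) for Sptbn1, 3.30 ± 0.93 for Sptan1, 3.06 ± 0.89 for Sptb, 3.04 ± 0.86 for Ank2, 2.52 ± 0.70 for Ank3, 1.81 ± 0.58 for Sptbn4 and 0.45 ± 0.24 for Ank1. Their median was 3.04, and that of all tested genes was -0.01. The TRAP and WCH libraries overlapped for Sptan1, Sptbn1 and Ank2, since TRAP replicate 2 was within or below the WCH range. Every TRAP library was above every WCH library for Sptbn4, Sptb, Ank3 and Ank1, as for 20.6% of all genes. edgeR's quasi-likelihood test at an adjusted p under 0.05 called 6 of the 7 higher and 0 lower, where 11.1% of all genes were called higher and 10.9% lower. Because the genes were chosen with the TRAP values known, nothing is read from that count. It was 5 without TRAP replicate 3, where 6.99% of genes were called higher. The log2 fold changes were then 1.60 for Sptbn1, 1.501 for Sptan1, 1.48 for Ank2, 1.37 for Sptb, 1.19 for Ank3, 0.61 for Sptbn4 and 0.41 for Ank1. It was 0 when only TRAP and WCH were fitted, where 15.5% of genes were called higher, and also 0 without any 1 of the WCH libraries (4.75% to 6.90% of genes called higher) or without SynapTRAP replicate 2 or 3 (11.5% and 13.0%), and 2 without SNF replicate 1 or 2 (9.63% and 10.4%). Of the marker lists, 4 of 10 neuronal genes were called higher in TRAP, and 7 of 10 astrocyte, 6 of 10 oligodendrocyte, 4 of 10 microglial and 2 of 5 tested erythroid genes were called lower.

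The gradient band addresses which transcripts accompany synaptic membranes. In TMM-scaled CPM, Sptbn1, Ank2, Ank3 and Sptb were above WCH in every SNF library, whereas Sptan1, Sptbn4 and Ank1 overlapped WCH. For Ank3 and Sptb that separation depended on the scaling. As shares of counts outside the mitochondrial genome, SNF replicate 2 was below WCH replicate 2 for both. SNF replicate 2 had 1424 Ank3 and 121 Sptb reads of 2075797, and WCH replicate 2 had 4331 and 468 of 6032062. The mean of Sptbn1 was 861 ± 250 CPM in SNF and 357 ± 72.6 CPM in WCH (SD, n = 3 each), a log2 fold change of 1.27 ± 0.94 (SE). Ank2 averaged 1072 ± 285 CPM in SNF and 452 ± 37.6 CPM in WCH (SD, n = 3 each), with a log2 fold change of 1.25 ± 0.81 (SE). The log2 fold change was 0.92 ± 0.67 for Ank3, 0.77 ± 0.85 for Sptb, 0.31 ± 0.25 for Ank1, 0.04 ± 0.85 for Sptan1 and -0.15 ± 0.61 for Sptbn4. With all 12 libraries in 1 fit, edgeR's quasi-likelihood test called 0 of the 7, with adjusted p from 0.25 to 0.98, 0 at an unadjusted p under 0.05 and 0 by DESeq2, where 20.6% of all genes were called higher and 16.5% lower. In TMM-scaled CPM, libraries of SNF did not overlap those of WCH for 4 of the 7 genes, higher in SNF each time, as for 25.6% of all genes. In that fit the TRAP libraries enter the estimate of each gene's spread. With only SNF and WCH fitted, 4 of the 7 genes were called higher (Sptbn1 1.39, Ank2 1.37, Ank3 1.04 and Sptb 0.89, adjusted p from 4.78e-06 to 0.00114 by edgeR), where 27.8% of all genes were called higher. Without TRAP replicate 2, where 21.8% of all genes were called higher, and without TRAP replicate 3, where 21.45% were, Sptbn1, Ank2 and Ank3 were called. Without the filter on low counts the same 4 genes were called, where 13.8% of all genes were. Sptan1 and Ank1 changed sign, to -0.35 and -0.09, when libraries were scaled by total counts outside the mitochondrial genome, under which the all-gene median was -0.64 in place of -0.25; all 7 values were above that median in both scalings.

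Glial markers moved with the band. The summed astrocyte list was 13450 to 18430 CPM in SNF and 2213 to 2805 CPM in WCH, with 9 of 10 genes called higher. The oligodendrocyte list was 7357 to 9506 CPM in SNF and 2692 to 3436 CPM in WCH, with 6 of 10 called higher, and the microglial list was 315 to 643 CPM in SNF and 80.4 to 98.9 CPM in WCH, with 10 of 10 called higher. Of the neuronal genes, 1 of 10 was called higher and 2 lower. The endothelial list was 14.1 to 18.4 CPM in SNF and 4.86 to 8.52 CPM in WCH, with 1 of 8 called higher. No marker of these lists was at 0 in every library. For Sptb and Ank1, which red cells make, 8 erythroid genes summed to 3.93 to 5.16 CPM in SynapTRAP, 4.69 to 10.3 CPM in TRAP, 3.41 to 6.33 CPM in SNF and 16.6 to 19.7 CPM in WCH. Of these, Epb42 was at 0 in all but 1 WCH library. The part of glial or red cell RNA in the levels of the spectrin and ankyrin genes was not tested.

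Pull-down from the band addresses which of its transcripts are on tagged ribosomes. All 7 genes were higher in every SynapTRAP library than in every SNF library, which held for 12.4% of all genes. Sptb averaged 184 ± 30.4 CPM in SynapTRAP and 50.9 ± 16.5 CPM in SNF (SD, n = 3 each), a log2 fold change of 1.86 ± 0.86 (SE). Sptbn1 averaged 2790 ± 37.4 CPM in SynapTRAP against its SNF mean above, a log2 fold change of 1.70 ± 0.95. The log2 fold change was 1.52 ± 0.87 for Sptan1, 1.41 ± 0.61 for Sptbn4, 1.21 ± 0.81 for Ank2, 1.08 ± 0.67 for Ank3 and 0.73 ± 0.25 for Ank1. Their median was 1.41, beside 0.03 for all tested genes. With 12 libraries in 1 fit, edgeR's quasi-likelihood test called 0 of the 7 (adjusted p from 0.10 to 0.46), with 2 at an unadjusted p under 0.05 (Sptbn4 and Ank1) and 0 by DESeq2, where 2.29% of all genes were called higher and 1.79% lower.

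That count moved with the filter on low counts and with the libraries that shared the fit. Without the filter, edgeR called 6 of the 7 higher, all but Ank1, where 2.68% of all genes were called higher. That fit gave far smaller p-values even where libraries spread widely. For Sptan1 in TRAP against WCH, edgeR's quasi-likelihood test gave an adjusted p of 2.41e-19 without the filter and 0.0352 with it. The log2 fold changes were 3.31 and 3.30. The cause was not tested, and nothing is read from these or the other unfiltered calls. With only SynapTRAP and SNF fitted, edgeR called Sptan1 (1.47), Sptbn1 (1.65), Sptbn4 (1.35) and Sptb (1.80) higher, with adjusted p from 0.00804 to 0.0197, where 1.21% of all genes were called higher. Ank2 (1.16, adjusted p = 0.0526), Ank3 (1.03, adjusted p = 0.0698) and Ank1 (0.67, adjusted p = 0.21) were not called there. The same 4 spectrin genes were called without TRAP replicate 3, where 1.98% of all genes were called higher, and without TRAP replicate 2, where 2.04% were. Deviations of same-numbered SynapTRAP and SNF libraries from their group means correlated weakly (0.218, 0.293 and 0.379). Differently numbered libraries were not compared, so a pairing by number is not established. With the replicate number as a block in the fit of these 2 groups, a setting added after the data were seen, edgeR called all 7 higher (adjusted p from 3.86e-12 to 0.0181), where 8.11% of all genes were called higher. With the block in the fit of all 12 libraries the count was 0, where 3.29% of all genes were called higher. In the same comparison 1 of 10 neuronal genes was called higher, and 2 of 10 oligodendrocyte and 1 of 10 microglial genes were called lower. Of 10 astrocyte genes 0 were called in either direction. Their sum was 8666 to 14900 CPM in SynapTRAP and 13450 to 18430 CPM in SNF, beside 2213 to 2805 CPM in WCH.

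Set against TRAP, SynapTRAP had lower fitted levels of 6 of the genes and a higher level of Ank1, and the sign of the 6 rested on TRAP replicate 3. The mean of Sptan1 was 862 ± 78.5 CPM in SynapTRAP and 2892 ± 3651 CPM in TRAP (SD, n = 3 each), and the SD in TRAP exceeded its mean. SynapTRAP libraries lay within the TRAP range for 6 of the genes, with log2 fold changes from -1.75 ± 0.87 (Sptan1) to -0.44 ± 0.82 (Sptb). Ank1 was the exception, with 32.9 ± 7.79 CPM in SynapTRAP and 21.7 ± 1.77 CPM in TRAP (SD, n = 3 each), no overlap, as for 21.4% of all genes, and a log2 fold change of 0.60 ± 0.24 (SE). edgeR called 0 of the 7 in either direction, 1 at an unadjusted p under 0.05 (Ank1) and 0 by DESeq2, where 21.6% of all genes were called higher and 18.1% lower. The log2 fold change of Ank1 was 0.57 with the replicate block in the fit of 12 libraries, 0.63 with the block in the fit of only these groups and 0.36 without SynapTRAP replicate 1. edgeR called Ank1 with the first of these and in 4 of 19 alternatives in all, from which nothing is read, since the comparison uses the TRAP libraries. Without TRAP replicate 3 the log2 fold changes of Sptan1, Sptbn1, Sptbn4, Sptb, Ank2 and Ank3 turned to 0.05, 1.36, 0.65, 1.24, 0.97 and 0.79, and without TRAP replicate 2 they were -2.32, -1.25, -1.01, -0.995, -1.15 and -1.06. Glial markers moved with this comparison, with 10 of 10 astrocyte, 8 of 10 oligodendrocyte and 10 of 10 microglial genes called higher in SynapTRAP, and 2 of 10 neuronal genes called higher and 5 lower. Their part in the values of Ank1 was not tested. The difference between the pull-down effects in the band and in whole cortex was -1.94 ± 1.33 for Sptbn1, -1.83 ± 1.13 for Ank2, -1.78 ± 1.21 for Sptan1, -1.44 ± 0.94 for Ank3, -1.20 ± 1.18 for Sptb, -0.40 ± 0.83 for Sptbn4 and 0.29 ± 0.35 for Ank1 (log2 ± SE). edgeR called 0 of these, with 0 at an unadjusted p under 0.05 and 0 by DESeq2, where 0.507% of all genes were called higher and 0.358% lower.

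Ratios between paralogs within a library do not depend on its scaling. The log2 ratio of Sptbn1 to Sptan1 was 1.82, 1.56 and 1.71 in SynapTRAP, 0.40, 0.31 and 0.66 in TRAP, 1.70, 1.08 and 1.67 in SNF, and 0.33, 0.33 and 0.17 in WCH. These are ratios of counts, not of levels per length, and only their differences between preparations are read. This ratio of Sptbn1 to Sptan1 was higher in each gradient preparation than in the whole-cortex preparation of the same kind, with no overlap. Ratios of Sptb and Sptbn4 to Sptan1 were not computed, so this is not read as a shift of beta subunits in general. The difference was 1.24 between SynapTRAP and TRAP and 1.21 between SNF and WCH. TRAP and WCH differed by 0.18 and overlapped, although Sptbn1 itself differed 30.9-fold between TRAP libraries.

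**Figure D4:**
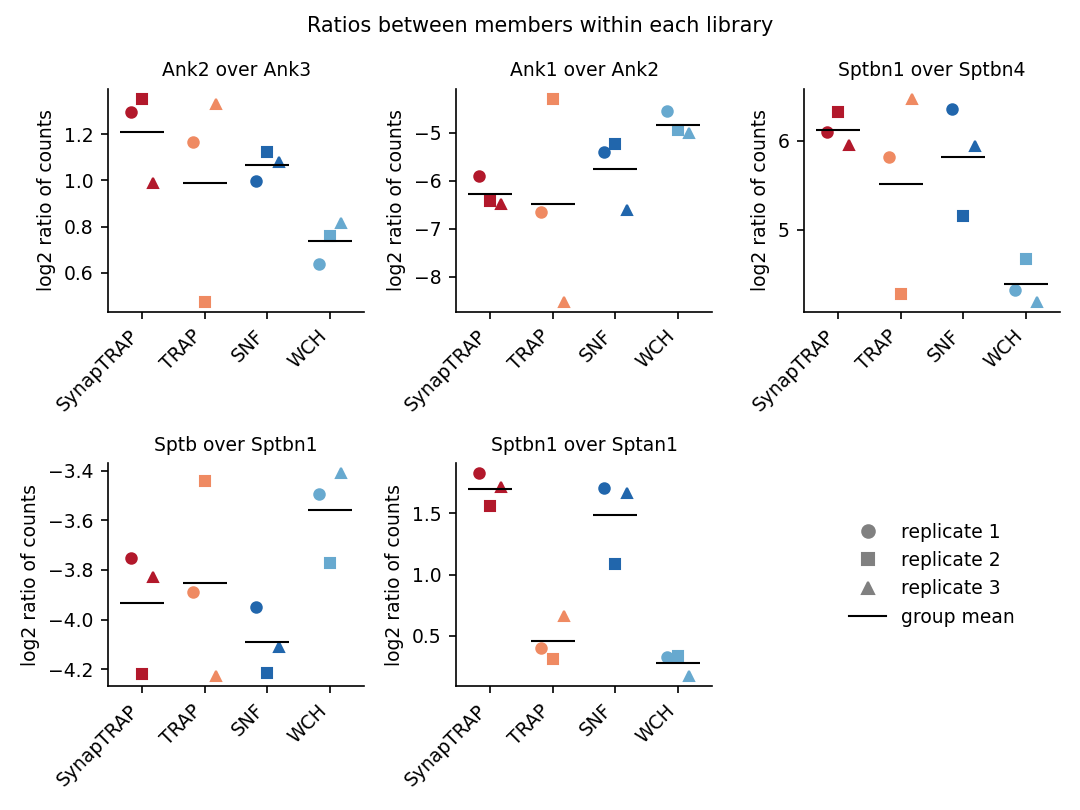
Log2 ratio of the counts of 2 genes in each of 12 libraries, for 5 pairs; symbols are replicates 1 to 3 and lines are group means of 3. Sptbn1 over Sptan1 lies at 1.08 to 1.82 in SynapTRAP and SNF and at 0.17 to 0.66 in TRAP and WCH, while Ank1 over Ank2 spreads from -8.52 to -4.30 in TRAP.

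Each of the 5 pairs differed between SNF and WCH without overlap, but Sptbn1 is in 3 of the pairs and Ank2 in 2, so they are not separate evidence. Sptbn1 over Sptbn4 was 5.82 ± 0.61 in SNF and 4.40 ± 0.25 in WCH, and Ank2 over Ank3 was 1.07 ± 0.06 in SNF and 0.74 ± 0.09 in WCH (log2, SD, n = 3 each). Lower in SNF were Sptb over Sptbn1, with -4.09 ± 0.13 in SNF and -3.56 ± 0.19 in WCH, and Ank1 over Ank2, with -5.75 ± 0.75 in SNF and -4.83 ± 0.24 in WCH (log2, SD, n = 3 each). Of 20 comparisons, 6 did not overlap, each with p = 0.1 in a two-sided exact permutation test, the smallest that 3 against 3 libraries allow, and 0.333 after Benjamini-Hochberg adjustment over the 20. The 20 include comparisons with TRAP, which are description only, and Sptbn1 over Sptan1 in SynapTRAP against TRAP is among the 6. Ratios of other gene pairs were not computed, so how often such pairs do not overlap is unknown. The libraries of SynapTRAP and SNF overlapped in every ratio, with differences of -0.52 for Ank1 over Ank2, 0.31 for Sptbn1 over Sptbn4, 0.21 for Sptbn1 over Sptan1, 0.16 for Sptb over Sptbn1 and 0.145 for Ank2 over Ank3. Paired by number, a pairing that is not established, Sptbn1 over Sptan1 was higher in SynapTRAP in 3 of 3 pairs. Ank1 over Ank2 was higher there in 1 of 3, and Ank2 over Ank3, Sptbn1 over Sptbn4 and Sptb over Sptbn1 in 2 of 3. Nothing is read from these counts. Within TRAP, Ank1 over Ank2 was -6.64, -4.30 and -8.52, the widest of the 5 pairs.

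Over the 12 libraries the genes other than Ank1 varied together. Pearson's r of log2 CPM was 0.994 between Sptbn1 and Ank2 and at least 0.867 between any pair of those 6 genes, while Ank1 had 0.421 (with Sptan1) to 0.639 (with Sptb). These values are over libraries that share preparations and scaling, and the spread among the TRAP libraries enters all of them. Outside the 7 genes, those with the highest r included Mapk8ip2 for Sptbn1 (0.981), Shank2 for Sptb (0.982) and for Ank3 (0.982), and Macf1 for Ank2 (0.979). Mprip was most like Sptan1 (0.987) and Sptbn4 (0.965), followed by Ppp1r9a for Sptan1 (0.986) and Myo5a for Sptbn4 (0.958). Cul9 (0.942) and Pcx (0.934) were most like Ank1.

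All 7 genes are long. Across 13311 genes with an annotated length, which are not independent replicates, Spearman's rho between exonic length and log2 fold change was -0.227 for TRAP against WCH, 0.003 for SNF against WCH, 0.076 for SynapTRAP against SNF, 0.224 for SynapTRAP against TRAP and 0.263 for the difference of pull-down effects. For the difference between TRAP replicates 3 and 2 it was 0.072. Among 1634 genes with at least as much exon as Sptbn4, the median log2 fold change in TRAP against WCH was -0.24 and 6.43% were called higher. Of the same long genes, 22.1% were called higher in SNF against WCH, 4.35% in SynapTRAP against SNF and 31.4% in SynapTRAP against TRAP, with medians of -0.22, 0.11 and 0.28.

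The wider membrane skeleton was followed through 38 listed partners, of which 33 were tested. The 5 others, among them Sptbn5, Epb42, Iqcj and Slc4a1, fell below the filter on low counts. In TRAP against WCH, edgeR called 7 of the 33 higher and 1 lower, where 11.1% and 10.9% of all genes were (median log2 fold change 0.24, beside -0.01 for all genes). The gene called lower was the potassium channel Kcnq3, with 202, 186 and 140.0 CPM in TRAP and 404, 475 and 605.5 CPM in WCH (log2 fold change -1.49, adjusted p = 0.000344). In SNF against WCH, 16 rose and 4 fell, where 20.6% and 16.5% of all genes did (median 0.97, beside -0.25 for all genes), among them all 4 L1 family adhesion molecules that ankyrins bind and 8 of 9 channels and transporters. L1cam had 449.5, 650.5 and 496.5 CPM in SNF and 83.5, 89.95 and 111 CPM in WCH (log2 fold change 2.49, adjusted p = 2.32e-06 by edgeR). The 2 scaffold partners tested, Mpp1 and Schip1, both fell. In SynapTRAP against SNF, 3 rose and 3 fell, where 2.29% and 1.79% of all genes did (median 0.04, beside 0.03 for all genes). Of 3 adducins, 4 Epb41 family genes and 4 tested genes of dematin and the tropomodulins, 1 each rose: the actin-capping tropomodulin Tmod1 (1.29, adjusted p = 0.0423), Epb41l1 (1.06, adjusted p = 0.0190) and the adducin Add2 (1.04, adjusted p = 0.0210). Tmod1 was low, with 8.10, 10.2 and 6.19 CPM in SynapTRAP and 3.74, 3.99 and 2.43 CPM in SNF. Partner calls were made in the fit of 12 libraries only. All 3 that fell were among the channels and transporters. In SynapTRAP against TRAP, 19 were called higher and 4 lower, where 21.6% and 18.1% of all genes were (median 0.98, beside -0.02 for all genes). Epb41l2 (2.21, adjusted p = 9.41e-06) and the L1 family member Chl1 (1.78, adjusted p = 9.53e-06) were higher, and Schip1, whose protein binds ankyrin-G, was lower (-1.65, adjusted p = 6.63e-06).

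Of the 7 genes, Ank1 alone appears in the authors' deposited tables of selected genes, in 1 of 3, that which its name gives as enriched in the synaptic band. In the authors' deposited table its log2 fold change was 0.62 with a false discovery rate of 0.0487, and the header does not name the groups compared. In SNF against WCH as fitted here, Ank1 had 0.31 with an adjusted p of 0.338 by edgeR, and its libraries overlapped.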

How the data were processed

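The authors deposited whole-number counts of reads per gene for each of 12 libraries, with 5 summary lines that held 19.3% to 58.3% of all reads and were left out. The submitters' processing notes name Bowtie2, STAR, HTSeq and edgeR. Versions, build, annotation and strand setting: not given in the sources used here. The authors' 3 deposited tables hold, per the file headers, log2 fold changes, p-values and false discovery rates of selected genes.

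Counts were filtered by edgeR 4.0.16 (filterByExpr, 13404 genes kept), expressed as TMM-scaled counts per 1000000 gene counts (CPM) for levels, and tested with its quasi-likelihood test (R 4.3.3, limma 3.58.1), with all 12 libraries in 1 fit, Benjamini-Hochberg adjustment over all tested genes and a call at an adjusted p under 0.05. Log2 CPM used a prior count of 2, and paralog ratios added 0.5 to each count. Alternatives were DESeq2 1.42.0, other scalings, no filter, only the groups compared, a replicate block and leaving out each library. Scripts were tested on simulated data.

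The genes, partner and marker lists were chosen with earlier results of these data known. All 7 genes are named. Named partners are the 3 called with the largest change per comparison, and genes of like pattern are the 2 with the highest Pearson correlation; some that these rules name are not reported here. Differently numbered libraries were not compared, so whether replicate numbers pair libraries was only described, by the correlation of same-numbered deviations from group means. It was over 0.1 in all 3 pairs for SynapTRAP with SNF (0.218, 0.293 and 0.379) and with TRAP (0.104, 0.144 and 0.106), and not in all pairs of the other comparisons. Symbols, coordinates and lengths come from GENCODE M21 on GRCm38. Sequences come from RefSeq.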

Additional observations from a re-analysis of the deposited data

How the results depend on the processing

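The number of the 7 genes called depended on the filter and on the libraries that shared the fit, as did the share of all genes called. In TRAP against WCH, 6 were called higher, against 0 with only the groups compared (also 0 with the replicate block added), 1 with the replicate block in the fit of 12 libraries and 0 to 6 when 1 library was left out (15.5%, 14.4%, 12.3% and 4.75% to 13.0% of all genes). In SNF against WCH, 0 were called higher, against 4 without the filter, 4 with only the groups compared, 4 with the replicate block added and 0 to 3 when 1 library was left out (13.8%, 27.8%, 27.7% and 15.8% to 21.8% of all genes). In SynapTRAP against SNF, 0 were called higher, against 6 without the filter, 4 with only the groups compared, 7 with the replicate block added and 0 to 4 when 1 library was left out (2.68%, 1.21%, 8.11% and 0.138% to 3.596% of all genes). In SynapTRAP against TRAP, 0 were called higher, against 1 with the replicate block and 0 to 2 when 1 library was left out (22.8% and 16.8% to 21.5% of all genes), and 0 lower, against 1 without the filter and 0 to 5 when 1 library was left out (11.7% and 14.2% to 19.1%). For the difference of pull-down effects, 0 were called lower, against 5 without the filter (0.991% of all genes). The fit of only 2 groups, with the block, was added after seeing the data. Beyond these settings themselves, the cause was not tested.

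Directions that changed were those near 0 or resting on TRAP. In SNF against WCH, Sptan1 had -0.35 with total counts outside the mitochondrial genome, -0.041 with the replicate block and -0.081 to 0.16 when 1 library was left out, Sptbn4 had -0.29 to 0.04 when 1 library was left out, and Ank1 had -0.089 with total counts outside the mitochondrial genome. In SynapTRAP against TRAP with only the groups compared and the replicate block, Sptbn1 had 0.64, Sptbn4 0.008, Sptb 0.56, Ank2 0.40 and Ank3 0.19, and Sptb had 0.067 with the replicate block alone. When 1 library was left out there, Sptan1 ranged from -2.32 to 0.048, Sptbn1 from -1.25 to 1.36, Sptbn4 from -1.01 to 0.65, Sptb from -0.995 to 1.24, Ank2 from -1.15 to 0.97 and Ank3 from -1.06 to 0.79. For the difference of pull-down effects, leaving out 1 library gave -2.61 to 0.001 for Sptbn1, -0.96 to 0.70 for Sptbn4, -1.85 to 0.38 for Sptb and -0.05 to 0.43 for Ank1. In the order of levels per kilobase in SNF, 3 of 7 genes kept their place with the length of the longest transcript.

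Scaling also moved the part of the called genes that was called higher. In SNF against WCH that part was 55.5% in the main fit, 67.7% with RLE factors and 29.7% with total counts outside the mitochondrial genome. As shares of all tested genes, these higher calls were 20.6%, 22.1% and 15.3%. In SynapTRAP against SNF the part of called genes that was higher moved from 56.1% to 33.6% with RLE factors. Genes called higher there ranged from 19 to 942 and lower from 20 to 1310 over all settings. A library left out of a group of 3 leaves 2. With 3 libraries a group and 37 to 82 reads of Sptbn4 and Ank1 in a SNF library, small differences of these genes were not detectable.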
